A study of Mus musculus with 26 samples.

Results

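The 9 genes described here encode mitochondrial enzymes that admit pyruvate to the tricarboxylic acid (TCA) cycle or catalyse its steps: Pcx, Pdha1, Cs, Idh3a, Idh3b, Ogdh, Suclg1, Fh1 and Mdh2. The list was chosen with earlier results of these data known. Its genes were found by symbol among the 39017 genes of both count tables, and each symbol matched 1 gene. Wild type C57BL/6J male mice, aged 9 to 10 weeks at the start, formed 3 groups: lean mice on a 10% fat diet for 12 weeks (LFD), obese mice on a 60% fat diet for 12 weeks (HFD), and formerly obese mice given the 60% fat diet for 9 weeks and then the 10% fat diet for 3 weeks (SW). Collagenase digests of their epididymal fat were spun to part the floating adipocytes from the pelleted stromal vascular cells (SVCs), a mixture of immune, endothelial, progenitor and other cells, and polyA RNA of each fraction was sequenced. The 15 libraries used were 3 per diet group for adipocytes, and 1 LFD, 2 HFD and 3 SW libraries for SVCs. A library is named here by its diet group and the number its column carries.

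Pyruvate made by glycolysis crosses the inner mitochondrial membrane through the mitochondrial pyruvate carrier. There it is either carboxylated to oxaloacetate by pyruvate carboxylase or oxidised to acetyl-CoA by the pyruvate dehydrogenase complex, and citrate synthase joins these products to open the cycle. In white adipocytes, part of the citrate leaves the mitochondrion for fatty acid synthesis, and pyruvate carboxylase replaces the carbon that is withdrawn and also supplies glyceroneogenesis.

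In adipocytes the libraries held between 6142895 and 23725647 counts, and each of the 9 transcripts had from 538 to 14079 counts per library. In SVCs, libraries held 5781902 to 22195810 counts and each transcript had from 88 to 8116. All 11 adipocyte markers (among them Adipoq and Plin1) were higher in adipocytes than in SVCs of both HFD and SW mice, and every adipocyte and macrophage marker had counts in every library. The endothelial markers went against the fraction names. In HFD mice 4 of 6 and in SW mice 5 of 6 were higher in adipocytes and 0 lower. Of all genes tested, 12.9% were higher and 16.2% lower in adipocytes in HFD mice, and 32.8% higher and 35.6% lower in SW mice. Summed endothelial markers were 741 to 2092 CPM in adipocyte and 264 to 628 CPM in SVC libraries. Each fraction was scaled on its own, so these 2 ranges are not on 1 scale. The 2 SVC libraries of HFD mice stood apart from each other, with 6.34% of counts from the mitochondrial genome in library 212 and 33.5% in library 411. Levels are given as CPM, each library's counts divided by its TMM-adjusted total and brought to a common total within its fraction. Close copies of 2 of the genes, Csl (of Cs) and Pdha2 (of Pdha1), had at most 4 and 1 counts in any adipocyte library, but 309 and 86 counts in SVC library SW 413 and 101 and 23 in SW 412.

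In adipocytes, few of the 9 transcripts differed between the diets. Mdh2 and Fh1, the enzymes of the last steps of the cycle, were lower in HFD than in LFD mice, while the other 7 did not pass the test. No member differed between SW and HFD mice or between SW and LFD mice at an adjusted p under 0.05 (edgeR quasi-likelihood test, Benjamini-Hochberg adjustment over all genes tested). The median of the absolute log2 fold changes was 0.16 for the 9 members and 0.54 for all 14461 genes between HFD and LFD mice. It was 0.07 against 0.38 between SW and HFD mice and 0.15 against 0.29 between SW and LFD mice. The members had at least 538 counts in every adipocyte library, whereas the filter kept genes with far fewer. Genes of like level were not set beside the members, so these medians do not show that the members were unusually steady.

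**Figure D1:**
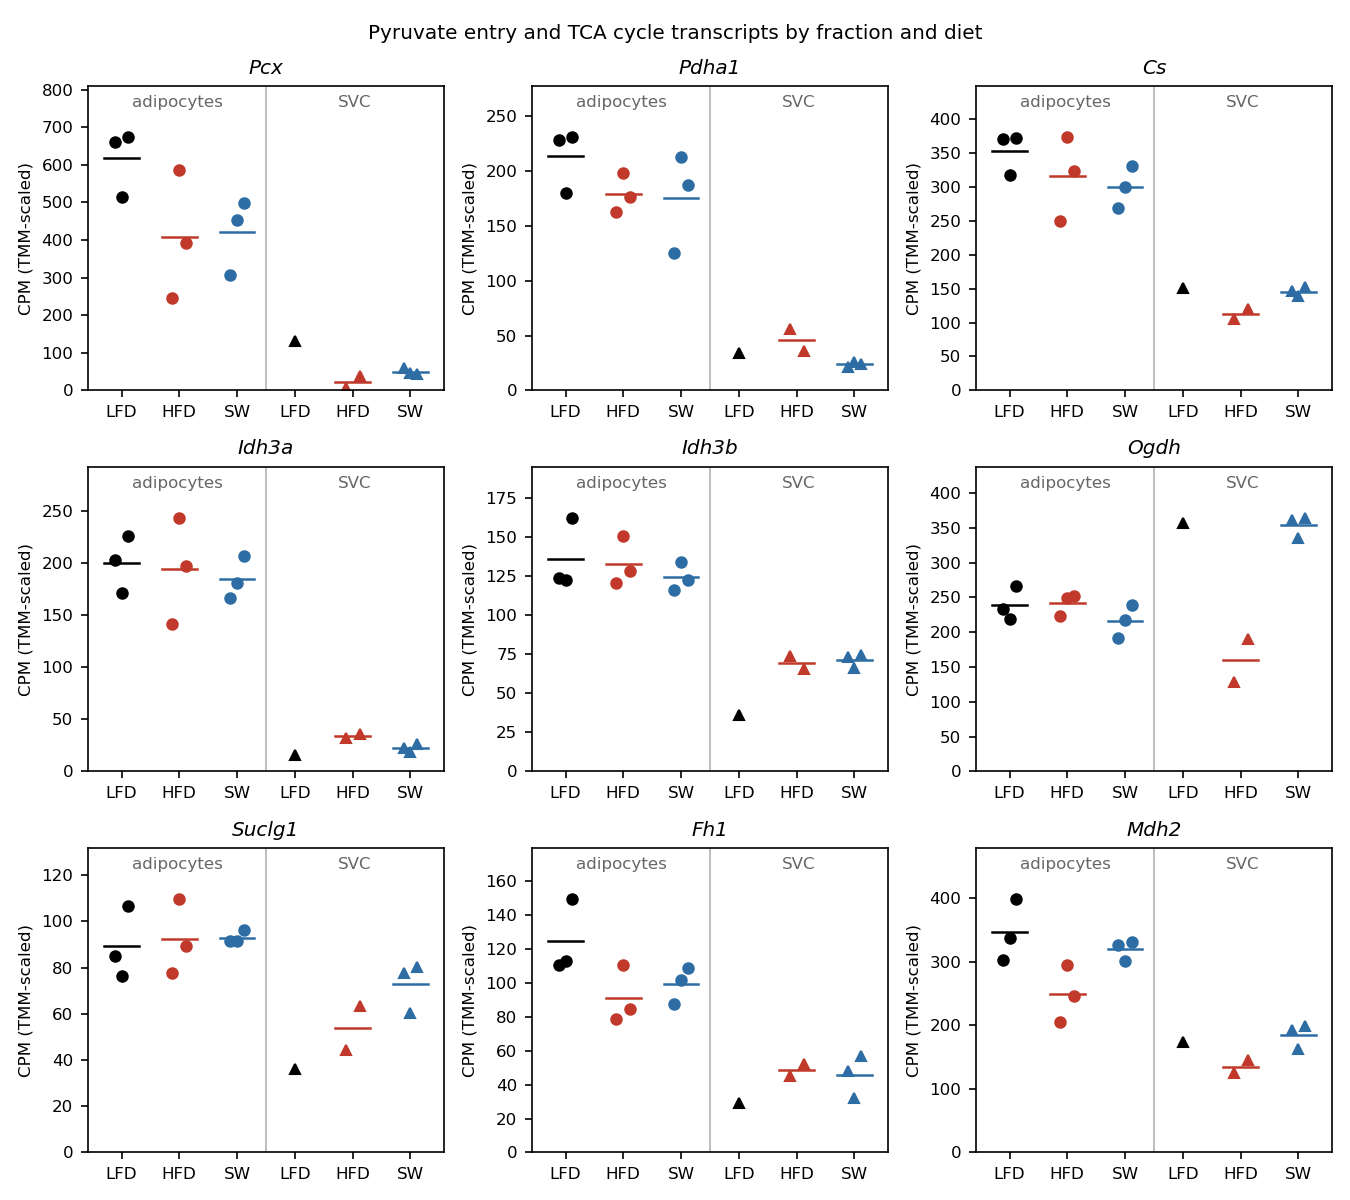
CPM of each of the 9 transcripts, TMM-scaled within each fraction (1 panel per gene, vertical axis from 0) in every library of adipocytes (circles) and SVCs (triangles) from LFD (black), HFD (red) and SW (blue) mice; horizontal lines are group means, drawn where a group has more than 1 library. Mdh2 in HFD adipocytes (206 to 295 CPM) lies below LFD adipocytes (304 to 400 CPM), and Ogdh is the panel in which SVCs of SW mice (335 to 364 CPM) lie above adipocytes.

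Mdh2, mitochondrial malate dehydrogenase (chr5:135778480-135790398, plus strand, GRCm38), regenerates oxaloacetate at the end of the cycle. In adipocytes its level was 304, 338 and 400 CPM in LFD mice (libraries 404, 405 and 406), 206, 295 and 247 CPM in HFD mice (401, 402 and 403), and 326, 302 and 332 CPM in SW mice (407, 408 and 409). Every HFD library was below every LFD and every SW library, and the SW libraries lay within the LFD range but for 408, just under it. The group means were 347 ± 48.7, 249 ± 44.6 and 320.1 ± 15.8 CPM (SD, n = 3 each). Mdh2 fell by 0.48 on the log2 scale in HFD mice (SE 0.16, adjusted p = 0.0331, edgeR). Between SW and HFD mice it was higher by 0.36 without passing the test (adjusted p = 0.115, edgeR; 95% interval -0.0041 to 0.73), although the libraries did not overlap.

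Fh1, fumarate hydratase, makes the malate that Mdh2 uses (chr1:175600374-175625635, minus strand). It was at 111, 113 and 149.8 CPM in LFD, 78.8, 111 and 84.5 CPM in HFD, and 87.7, 102 and 109 CPM in SW adipocytes. The highest HFD library, 402, lay just under the lowest LFD library, 404, without overlap, and all SW libraries lay below the LFD range. Fh1 fell by 0.44 in HFD mice (log2, SE 0.17, adjusted p = 0.0489, edgeR). In SW mice it was 79.8% of the LFD mean, a log2 difference of -0.32 that did not pass (adjusted p = 0.22, edgeR).

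These 2 falls rested on few libraries. Neither passed the edgeR test when LFD library 405, LFD library 406, HFD library 401 or HFD library 403 was left out, nor with no filter on low counts. Over all alternatives the adjusted p ranged from 0.00938 to 0.213 for Mdh2 and from 0.0188 to 0.195 for Fh1, and both passed in 11 of 17 fits. After a correction for transcript length, Mdh2, which has the shortest transcript of the 9 at 1606 bases, was at -0.20 (adjusted p = 0.213, edgeR) and Fh1 at -0.43 (adjusted p = 0.04, edgeR). Thus 2 of 9 members were lower and 0 of 9 higher in HFD mice, where 25% of all genes tested were lower and 26.5% higher.

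Pyruvate entry was described by Pcx and Pdha1. Pcx, pyruvate carboxylase (chr19:4510472-4621752, plus strand), was the transcript with the widest relative spread among HFD libraries, at 660.4, 515 and 675 CPM in LFD, 246, 587 and 391 CPM in HFD, and 308, 454 and 498 CPM in SW adipocytes. All SW libraries were below all LFD libraries, whereas HFD library 402 lay within the LFD range and HFD library 401 was the lowest of the 9. Its coefficient of variation was 14.3% among LFD libraries, 41.9% among HFD libraries and 23.7% among SW libraries. Pcx differed by -0.59 between HFD and LFD mice (log2, SE 0.30, adjusted p = 0.119, edgeR) and by -0.55 between SW and LFD mice (adjusted p = 0.234, edgeR). The 95% interval of the HFD difference ran from -1.26 to 0.07. Without HFD library 402 the difference was -0.94 and passed (adjusted p = 0.0197, range over the alternatives 0.0197 to 0.312, edgeR).

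Pdha1, the E1 alpha subunit of pyruvate dehydrogenase on which the inhibitory kinases act (chrX:160122209-160138413, minus strand), was at 228, 180.1 and 231 CPM in LFD, 163, 199 and 176 CPM in HFD, and 125, 213 and 188 CPM in SW adipocytes. The groups overlapped in both comparisons with LFD mice, and the difference was -0.25 in HFD mice (95% interval -0.68 to 0.19, adjusted p = 0.311, edgeR). The ratio of Pcx to Pdha1, each per kilobase of transcript, was 1.99 and 1.96 in LFD libraries 404 and 405 and slightly higher in 406 (mean 1.98). It was 1.04, 2.03 and 1.52 in HFD mice, and 1.69, 1.47 and 1.82 in SW mice. Every SW library was thus below every LFD library in this ratio, the smallest p an exact two-sided permutation test of 3 against 3 can give (p = 0.1; 0.4 after adjustment over 8 ratio tests). For HFD against LFD mice the exact permutation p was 0.4.

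The remaining 5 cycle transcripts showed no difference that passed in adipocytes. The 95% intervals below are for HFD against LFD mice, each for a single gene and not adjusted for the number of genes tested. Cs, citrate synthase (chr10:128337734-128362479, plus strand), was at 317 to 372 CPM in LFD, 250.3 to 374 CPM in HFD and 269 to 331 CPM in SW mice, with an HFD against LFD difference of -0.16 (95% interval -0.54 to 0.22, log2). Idh3a (chr9:54586334-54604661, plus strand) and Idh3b (chr2:130279309-130284547, minus strand), the catalytic alpha and the beta subunits of NAD-dependent isocitrate dehydrogenase, differed by -0.04 (-0.48 to 0.40) and -0.03 (-0.36 to 0.29). Ogdh, the E1 subunit of the 2-oxoglutarate dehydrogenase complex, was at 239.6 ± 23.9 CPM in LFD and 241 ± 15.7 CPM in HFD adipocytes (SD, n = 3 each), a difference of 0.01 (-0.29 to 0.31). Suclg1 (chr6:73248382-73276911, plus strand) encodes the alpha subunit of succinyl-CoA ligase. It was at 89.5 ± 15.6 CPM in LFD and 92.3 ± 16.3 CPM in HFD mice and at 91.4 to 96.1 CPM in SW mice. Its HFD against LFD difference was 0.05 (-0.30 to 0.40). Signs this close to 0 turned under several settings. Ogdh was at -0.09 and Suclg1 at -0.05 with upper-quartile factors, which moved the median of all genes from -0.03 to -0.12.

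In SW mice, 0 of 9 members passed against HFD mice, where 15.6% of all genes were higher and 15.9% lower. Against LFD mice, 0 of 9 passed, with backgrounds of 10.9% higher and 6.18% lower. Apart from Mdh2, the SW against HFD differences ran from -0.16 for Ogdh to 0.12 for Fh1. The largest SW against LFD differences were those of Pcx and Fh1, whose SW libraries were all below the LFD libraries. These comparisons share libraries, so their values are not independent of each other.

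Within diet groups, most of the 9 transcripts were high or low in the same libraries. HFD library 401 was the lowest of its group for 9 of 9 members, with a median of 77.9% of the mean of the other 2 libraries, and HFD library 402 was the highest for 8. LFD library 406 was the highest of its group for all 9, and SW library 407 the lowest for 8. The same counts over all genes tested were not made, so this order may not be particular to the members. The summed level of the 11 adipocyte markers followed the same order in HFD mice, at 13750.3 CPM in 401, 17563 CPM in 403 and 23000 CPM in 402, and was also highest in 406 among the LFD libraries (59892 CPM). In LFD mice the lowest marker sum was in 404 (39169 CPM), while 405 was lowest for 7 of 9 members. The part of adipocyte content in the spread of the members was not tested.

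**Figure D2:**
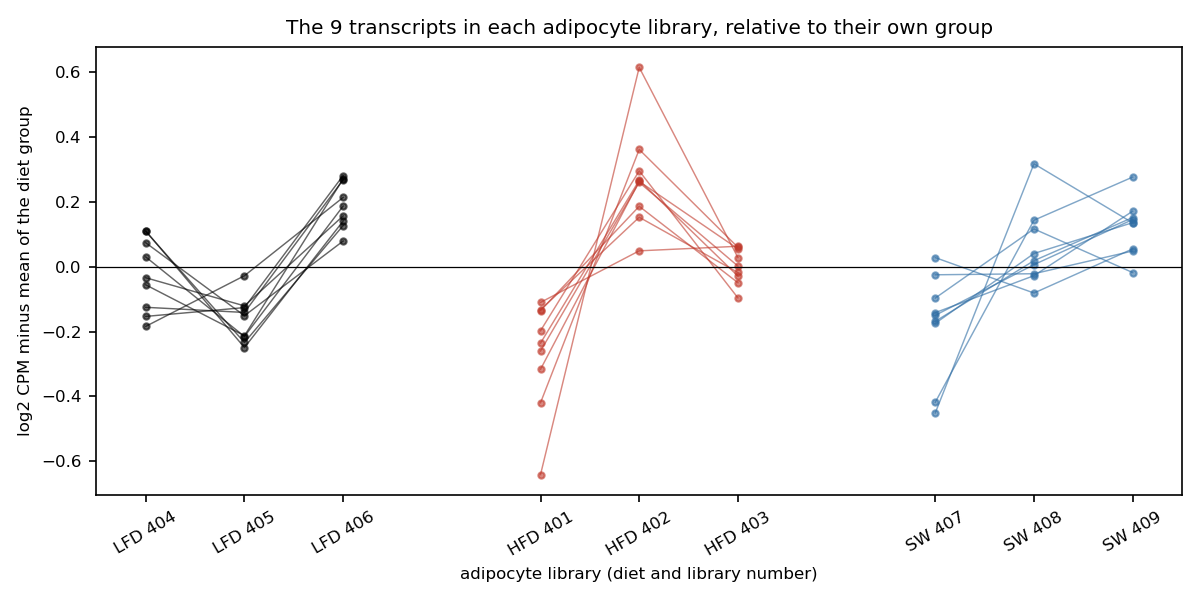
log2 CPM of each of the 9 transcripts minus its own diet group mean (vertical axis) in the 9 adipocyte libraries (horizontal axis); each line joins 1 gene across the libraries of a group, with LFD in black, HFD in red and SW in blue. In HFD library 401 all 9 points lie below 0, and in LFD library 406 all 9 lie above.

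Markers of cell types also moved with diet in the adipocyte fraction. All 11 macrophage markers were higher in HFD than in LFD mice, and their summed level was 766 to 1249 CPM in LFD, 8652 to 10054 CPM in HFD and 6353 to 9477 CPM in SW libraries. Of the 11 adipocyte markers 9 were lower in HFD mice, and their sums were 39169 to 59892 CPM in LFD, 13750.3 to 23000 CPM in HFD and 31308 to 34279 CPM in SW libraries. Of 6 endothelial markers 5 were lower in HFD mice, where 25% of all genes tested were lower and 26.5% higher. The part of these shifts in the falls of Mdh2 and Fh1 was not tested, and in bulk RNA fewer cells of a type and less RNA per cell cannot be told apart.

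Levels were also divided by the length of each gene's longest annotated transcript. The form expressed was not determined, so the order below, like the size of the ratios per kilobase, depends on this length. On this scale Mdh2 was the most abundant of the 9 in LFD adipocytes at 216 ± 30.3 CPM per kb (SD, n = 3). Pcx followed at 149 ± 21.3 and Cs at 118 ± 10.4. Idh3a (77.7 ± 10.7), Pdha1 (74.9 ± 10.1), Idh3b (66.5 ± 11.1) and Ogdh (58.1 ± 5.79) came next, each differing from its neighbour by less than the larger SD of the pair. Fh1 (47.2 ± 8.29) and Suclg1 (32.3 ± 5.65) were the least abundant. In HFD adipocytes Mdh2 stayed first at 155 ± 27.7, and Cs (105 ± 20.7) and Pcx (98.4 ± 41.2) were not separable.

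Genes around the members in the pathway were counted from lists of 44 further genes, of which all 44 were tested. Between HFD and LFD adipocytes, 8 of the 44 were higher and 9 lower, against 26.5% and 25% of all genes tested. The pyruvate carrier was lower in both subunits: Mpc2 fell by 1.13 (log2, SE 0.24, adjusted p = 0.00325, edgeR), from 227 ± 16.8 to 103 ± 33.9 CPM, and Mpc1 fell by 0.81 (adjusted p = 0.027, edgeR), from 269 ± 53.2 to 153 ± 35.3 CPM. The Mpc1 call was lost after the length correction (-0.37) and without LFD library 404 or 406 or HFD library 401 or 403 (adjusted p over all its alternatives 0.00696 to 0.375, edgeR). Of the other 4 subunits of the pyruvate dehydrogenase complex, 2 were lower. Pdhb, the E1 beta subunit that pairs with Pdha1, fell by 0.83 (adjusted p = 0.00095, edgeR), from 221 ± 21.7 to 124 ± 19.9 CPM, and Dld, the E3 subunit shared with the 2-oxoglutarate complex, fell by 0.43. Whether Pdhb and Pdha1 differed in their change was not tested.

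The 4 pyruvate dehydrogenase kinases, which phosphorylate Pdha1 and switch the complex off, did not move alike. Pdk4 was higher by 1.01 in HFD adipocytes (SE 0.29, adjusted p = 0.0149, edgeR), from 51.8 ± 14.1 to 103 ± 21.5 CPM, and Pdk1 by 0.63 (adjusted p = 0.0117, edgeR), from 25.1 ± 2.43 to 38.7 ± 4.82 CPM. Both lost the call when LFD library 405 was left out. Pdk2 was at -0.70 (adjusted p = 0.073, edgeR) and Pdk3 at 0.02 (adjusted p = 0.9, edgeR). In SW mice none of the 4 differed from HFD or from LFD mice by the test, and Pdk4 had 89.3 ± 32.7 CPM.

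Of the other pathway genes, Pdpr, the regulatory subunit of pyruvate dehydrogenase phosphatase, had the largest difference, 3.59 higher in HFD adipocytes (adjusted p = 0.000151, edgeR). It had 8 to 17 counts in LFD, 238 to 366 counts in HFD and 8 to 32 counts in SW libraries, so its LFD and SW levels were few counts. Got1, the cytosolic aspartate aminotransferase, was higher by 1.14 in HFD mice and by 1.11 in SW mice, each against LFD mice. It was the 1 of the 44 genes that passed between SW and LFD adipocytes. There 10.9% of all genes tested were higher and 6.18% lower. Among the 9 other cycle genes, 2 were lower in HFD mice, Suclg2 and Sdhd, and 0 were higher. Between HFD and LFD adipocytes, 25% of all genes tested were lower and 26.5% higher. Between SW and HFD adipocytes, 15.6% of all genes tested were higher and 15.9% lower. Of the 44, 2 were higher, Mpc2 by 0.71 (adjusted p = 0.0454, edgeR) and Pdhb by 0.61 (adjusted p = 0.0127, edgeR). A further 3 were lower, Pdpr, Gabpa (a transcription factor subunit, -0.49) and Me2 (a mitochondrial malic enzyme, -0.36). Several of these calls were lost under alternatives. Mpc2 passed in 11 of 17 fits (adjusted p 0.015 to 0.14), Gabpa in 10 (0.0168 to 0.151) and Me2 in 7 (0.0333 to 0.151). Mpc2 and Gabpa lost the call without HFD library 401 or 403 or SW library 407 or 409. Me2 lost it without HFD library 401, 402 or 403 or SW library 408 or 409. Pdhb passed in 15 of 17 fits and lost the call without HFD library 401 or 403.

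**Figure D3:**
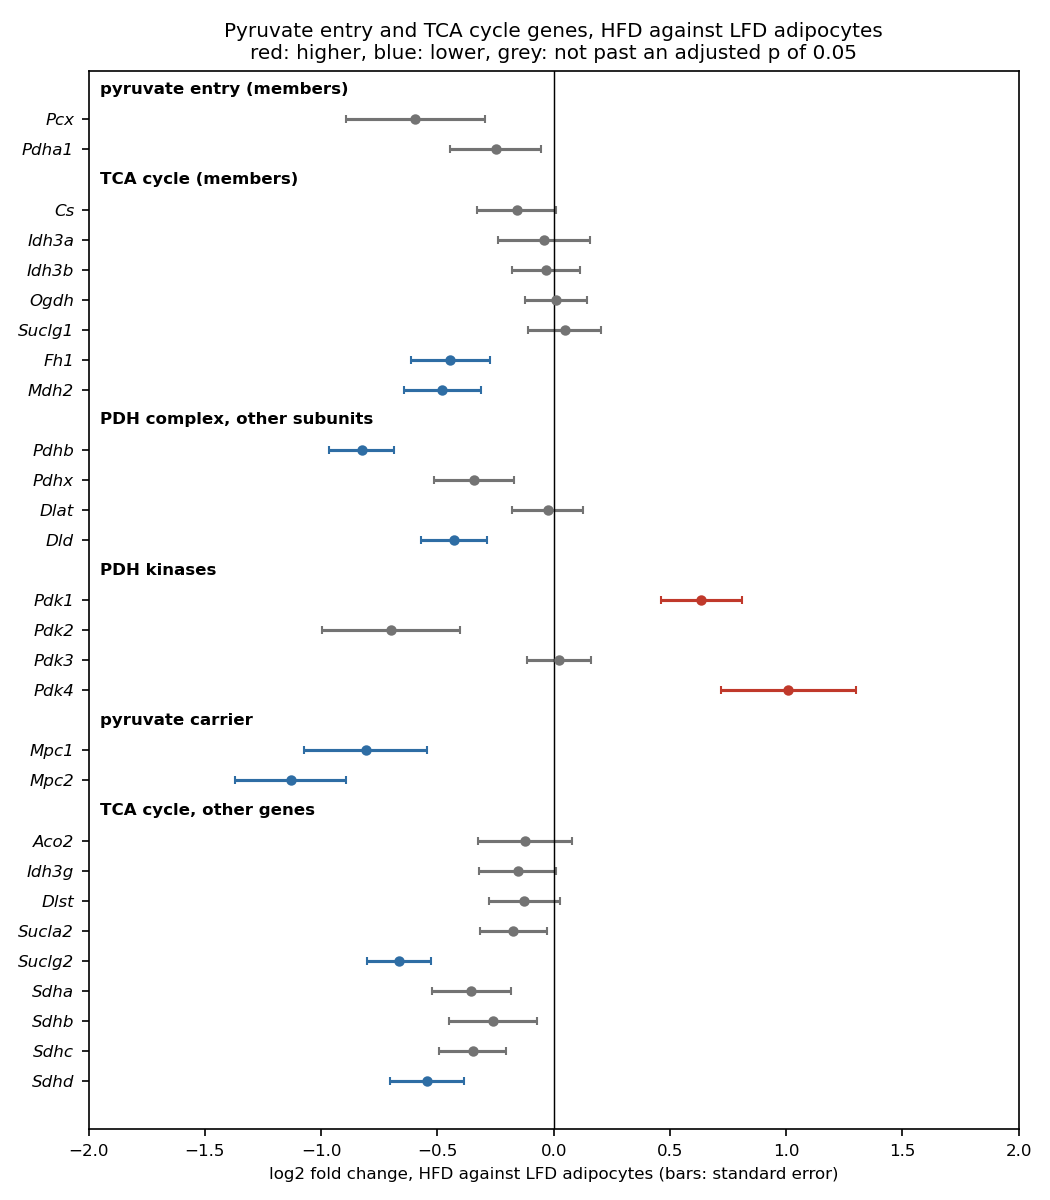
log2 fold change between HFD and LFD adipocytes (horizontal axis, bars are standard errors) for the 9 members and for other pyruvate and TCA cycle genes, grouped by role; red is higher, blue lower, grey not past an adjusted p of 0.05. Both carrier subunits and Pdhb lie further left than any member, Mdh2 and Fh1 are the members in blue, and Pdk1 and Pdk4 lie to the right.

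Oxidative phosphorylation, the stage that oxidises the NADH made by the cycle, was counted beside the members. Of 24 subunit genes, 16 were lower and 0 higher in HFD than in LFD adipocytes, against 25% and 26.5% of all genes tested. Their median log2 fold change was -0.61, where the members' median was -0.16. Values of these subunits under the alternatives, the length correction among them, are not given here. Of 10 genes listed for mitochondrial mass, 3 were lower and 1 higher in HFD than in LFD adipocytes (median -0.28). In SW against HFD adipocytes 3 of these 10 were higher and 0 lower (median 0.23). Between SW and HFD adipocytes 12 of the 24 were higher and 0 lower (median 0.56), against 15.6% and 15.9% of all genes tested. Between SW and LFD adipocytes 0 passed (median -0.11), where 10.9% of all genes tested were higher and 6.18% lower. The genes whose profile over the 9 adipocyte libraries lay nearest to the mean profile of the members, among 7855 candidates, were Lonp1, Atp5b, Cog4, Immt and Galm. Their root mean square differences from that mean profile were 0.0464 to 0.0597 in log2 CPM.

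In the other fraction, the diet switch was compared between 3 SW and 2 HFD libraries. Ogdh was higher in SW than in HFD SVCs, and the other 8 members did not pass. Ogdh (chr11:6291633-6356642, plus strand) was at 129 CPM in library 212 and 190.2 CPM in library 411 of HFD mice, and at 361, 335 and 364 CPM in SW libraries 412, 413 and 414. The single LFD library had 356 CPM. Both HFD libraries were below all others of the fraction, and Ogdh was higher by 1.15 in SW mice (log2, SE 0.26, adjusted p = 0.0407, edgeR). Without library 411 the difference was 1.46 (adjusted p = 0.0119, edgeR). The call was lost after a correction for GC content (0.62, adjusted p = 0.122, edgeR) and when any of libraries 212, 412, 413 or 414 was left out, and the adjusted p ranged from 0.000255 to 0.159 over the alternatives. Thus 1 of 9 members was higher and 0 lower, against 5.71% of all genes higher and 11.7% lower.

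The member next to the threshold in SVCs was Pdha1, at 56 and 36 CPM in HFD and 21.1, 25.8 and 24.4 CPM in SW libraries. It differed by -0.95 (SE 0.26, adjusted p = 0.0521, edgeR; 95% interval -1.58 to -0.32), its groups did not overlap, and it passed in 6 of 16 fits, with adjusted p from 0.0132 to 0.275. Its copy Pdha2 had 86, 23 and 3 counts in SW libraries 413, 412 and 414 and at most 2 in the other SVC libraries, and how far reads were divided between them was not tested. The other cycle transcripts divided by direction. Idh3a was at 31.8 and 35.5 CPM in HFD and 18.9 to 26.3 CPM in SW libraries (-0.59, adjusted p = 0.113, edgeR). Mdh2 was at 125 and 145 CPM in HFD and 162 to 199.8 CPM in SW libraries (0.45, adjusted p = 0.158, edgeR), and Cs at 106 and 120.4 CPM in HFD and 139 to 152 CPM in SW libraries (0.37, adjusted p = 0.195, edgeR). Neither of these groups overlapped, whereas those of Idh3b, Suclg1 and Fh1 did. Pcx differed widely between the 2 HFD libraries. HFD library 212 had 6.32 CPM, from 109 counts, and HFD library 411 had 39.3 CPM, while SW libraries had 43.6 to 59.9 CPM and the LFD library 131 CPM. Without library 411 the SW against HFD difference of Pcx was 2.98 (adjusted p = 0.0114, edgeR) and with both it was 1.13 (adjusted p = 0.251, edgeR; range over the alternatives 0.0114 to 0.688).

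Comparisons with the single LFD library of SVCs have no replicate check and are given as values. Between the HFD mean and that library, Pcx was at -2.53 and Ogdh at -1.16 on the log2 scale, while Idh3a was at 1.13 and Idh3b at 0.95. Between the SW mean and that library, Pcx was at -1.40, Ogdh at -0.01, Idh3b at 0.98 and Suclg1 at 1.02.

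Of the 44 other pathway genes, 1 was higher and 7 lower in SW than in HFD SVCs. Of all genes tested, 5.71% were higher and 11.7% lower. The kinases again differed among themselves: Pdk2 was higher by 1.73 (adjusted p = 0.0362, edgeR) and Pdk1 lower by a log2 difference of -1.47 (adjusted p = 0.0377, edgeR). Pdk2 passed in 13 of 16 fits and Pdk1 in 10 of 15, each with adjusted p up to 0.155. Both lost the call with the GC correction and without SW library 412 or 413, and Pdk1 also without HFD library 212 or SW library 414.

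Between the fractions, most members were higher in adipocytes. This was tested with all 15 libraries in 1 fit, with CPM scaled over both fractions. In HFD mice 5 of 9 were higher and 0 lower in adipocytes than in SVCs, against 12.9% of all genes higher and 16.2% lower. In SW mice 6 of 9 were higher and 1 lower, against 32.8% higher and 35.6% lower. Pcx was higher by 3.80 (log2, SE 0.65, adjusted p = 0.0013, edgeR) in HFD and by 2.66 (SE 0.52, adjusted p = 0.000513, edgeR) in SW mice. Idh3a was higher by 2.21 in HFD mice (4.64-fold, adjusted p = 9.02e-05, edgeR) and by 2.63 in SW mice (6.19-fold, adjusted p = 5.97e-07, edgeR). Pdha1 was higher by 1.66 (adjusted p = 0.000531) and 2.46 (adjusted p = 9.28e-07), and Cs by 1.16 (adjusted p = 0.00151) and 0.62 (adjusted p = 0.00686, edgeR for each). Mdh2 and Suclg1 did not pass in either diet. Mdh2 was at 0.56 in HFD mice (adjusted p = 0.0546, edgeR) and 0.37 in SW mice (adjusted p = 0.0804, edgeR), and it gained the call in 7 of 15 and 4 of 16 fits, with adjusted p from 0.00708 to 0.205 and from 0.00177 to 0.169. Suclg1 was at 0.45 and -0.06. Idh3b was higher by 0.63 (adjusted p = 0.0173, edgeR) in HFD and 0.39 (adjusted p = 0.0383, edgeR) in SW mice, and Fh1 by 0.71 (adjusted p = 0.0112, edgeR) in SW mice. With the GC correction in SW mice, Fh1 was at 0.35 and Cs at 0.38, and both lost the call (adjusted p = 0.205 and 0.0818, edgeR, the highest over their alternatives; the lowest were 0.0015 and 0.00166). Pcx, Pdha1 and Idh3a passed in both diets under all alternatives run, whereas Idh3b passed in 12 of 15 and 10 of 16 fits. With SVC library 212 left out, Pcx in HFD mice was higher by 2.99, and with SVC library 411 left out, by 5.78, while Idh3b lost the call without 411 (adjusted p = 0.0643, range over the alternatives in HFD mice 0.00124 to 0.122, edgeR). Around them, 17 of the 44 other pathway genes were higher and 3 lower in adipocytes of HFD mice, and 24 were higher and 8 lower in SW mice. All 4 other subunits of the pyruvate dehydrogenase complex were higher in adipocytes in both diets. Of the macrophage markers 5 of 11 were lower in adipocytes in HFD mice and 9 of 11 in SW mice.

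Idh3a and Idh3b are subunits of the same enzyme, and their balance differed between fractions. The ratio of Idh3a to Idh3b, each per kilobase, was 0.935 to 1.34 over the 9 adipocyte libraries and 0.228 to 0.431 over the 6 SVC libraries, with no overlap. In SW mice, the group with 3 libraries in each fraction, the mean ratios were 1.18 and 0.249 (exact two-sided permutation test, p = 0.1, the smallest that 3 against 3 can give; 0.4 after adjustment over 8 tests). Within adipocytes the mean ratio differed little by diet, at 1.17 for LFD mice, 1.14 for HFD mice and 1.18 for SW mice.

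Ogdh was the exception between fractions. In SW mice it was lower in adipocytes than in SVCs by a log2 difference of -1.13 (SE 0.19, adjusted p = 0.000133, edgeR), whereas in HFD mice it was at 0.27 (adjusted p = 0.351, edgeR). The change with the diet switch was tested between fractions directly: it was smaller in adipocytes by a log2 difference of -1.40 (SE 0.28, adjusted p = 0.00412, edgeR), and the test was passed under all alternatives run, with values from -1.71 to -0.93. Of the 9 members 1 differed in this direction and 0 in the other, against 11.4% and 15.7% of all genes. In the adipocyte libraries Ogdh spanned only 191 to 266 CPM. By the labels, some HFD libraries of SVCs have single runs only, whereas every SW library has a paired-end run. The part of read layout in the Ogdh contrast was not tested. Pdha1 had a difference of the opposite sign, 0.79, which did not pass (adjusted p = 0.0756, edgeR).

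**Figure D4:**
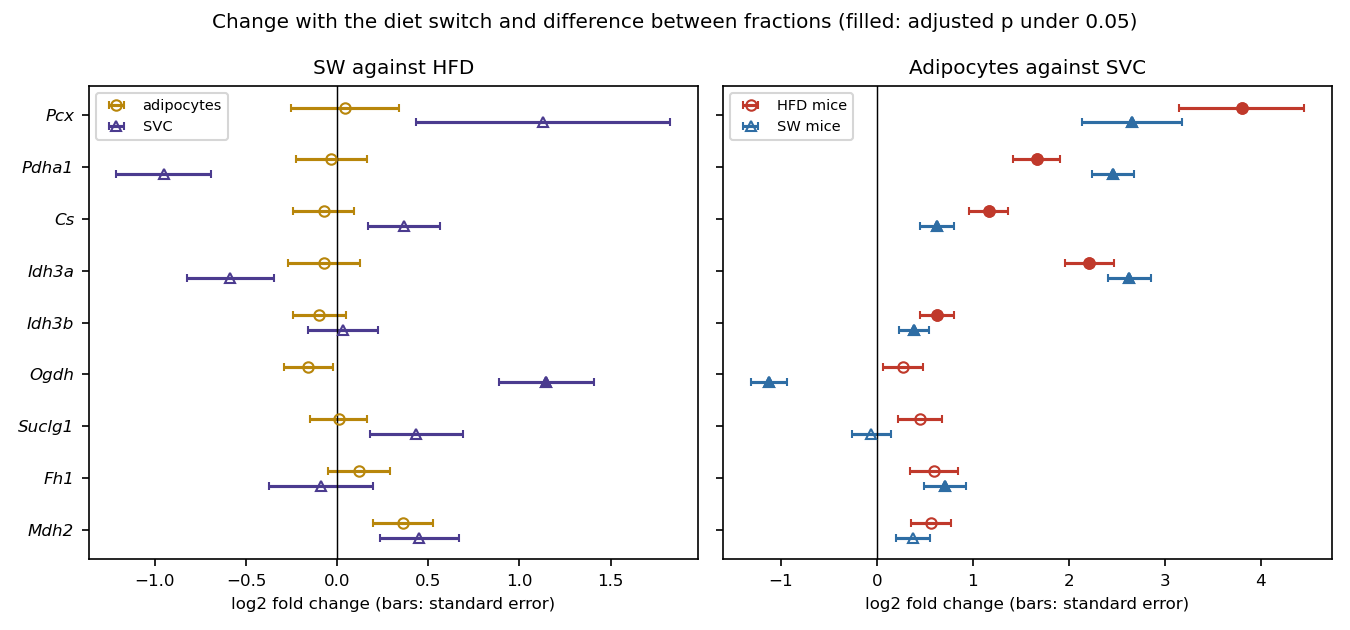
log2 fold changes of the 9 members with standard errors as bars: left, SW against HFD mice in adipocytes (circles) and SVCs (triangles); right, adipocytes against SVCs in HFD (circles) and SW (triangles) mice, filled where the adjusted p was under 0.05. On the left Ogdh in SVCs is the filled point, at 1.15, and on the right it is the one filled point below 0, at -1.13.

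Cell types in the SVC libraries differed too. Summed macrophage markers were 10727 CPM in HFD library 212 and 19700.3 CPM in HFD library 411, and 14049 to 20356 CPM in SW libraries. Of the 11 markers 2 were lower and 0 higher in SW than in HFD mice, against 11.7% and 5.71% of all genes tested. Adipocyte markers summed to 700.1 to 1369 CPM over the 6 SVC libraries, and which cells these transcripts came from was not tested. Fibroblast and progenitor markers summed to 6075 CPM in HFD library 212, 4034 CPM in HFD library 411, 6390 to 7411 CPM in SW libraries and 10955 CPM in the LFD library. The fibroblast and progenitor sums were lowest in the HFD libraries. The part of this composition in the values of Ogdh, Pdha1 and Pcx was not tested.

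Because Ogdh was the member whose change with the diet switch differed between fractions, the members' promoters were read for short motifs of factors known to act on mitochondrial genes. RefSeq promoters (GRCm38.p6, the 250 bases before each start) were found for 8 of the 9 members, with 14 starts, 6 of them of Ogdh. The core of the NRF1 motif, GCATGCG (reverse complement CGCATGC, both strands searched, the 2 forms overlapping here), was found in 2 of the Ogdh promoters and in no other member. It occurs in 3.02% of 32851 promoters. The window below is shown because it is the 1 stretch that holds it; it lies within the Ogdh gene, outside any annotated exon and 48 bases before the next exon of GENCODE M21, and the capitals mark the motif, at bases -13 to -7 from the nearer start.
Ogdh, chr11:6292528-6292557, plus strand, GRCm38: cgggctaggtgttgtgcGCATGCGtaactc
The ERR site AAGGTCA (4.08% of promoters) and the ETS core CCGGAAG (6.91%) were in no promoter of the 8 members. A match is a description of the sequence, and these letters absent from a window say nothing of the factor.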

How the data were processed

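RNA of adipocytes and SVCs from epididymal fat was sequenced by the authors, mapped with Bowtie2 to the mouse transcriptome and counted with RSEM. The deposited values are estimated counts per gene, given as whole numbers without normalization in a table for each fraction. The submitters' processing notes also name limma and mm9; the versions of the tools and the annotation release are not given in the sources used here. Per the labels, 18 libraries have 26 records, since 8 have 2 runs. Every adipocyte library and every SW library of SVCs has a paired-end run, whereas some HFD and LFD libraries of SVCs have single runs only. Which SVC columns these are is in no label. The part of read layout in the SVC comparisons and those between fractions, the Ogdh contrast among them, was not tested. Columns were used as replicates of their group, since the numbers in their names are in no label and not tied to a mouse, so p-values measure the spread between these libraries. The tables hold 3 more columns, left out since no label could be tied to them.

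Each fraction was fitted with all its diet groups in edgeR 4.0.16 (R 4.3.3): a robust quasi-likelihood model with TMM factors, filterByExpr (minimum count 10) and Benjamini-Hochberg adjusted p under 0.05. Both fractions were fitted together for comparisons between them. CPM, SD and ratios were computed in Python 3.11.15 with pandas 2.3.3, numpy 2.4.6 and scipy 1.17.1, and plots with matplotlib 3.10.9. The fits were tested on simulated data. Libraries of 1 group differed by more than sampling noise in every pair (chi-square per degree of freedom 13.7 to 408). Positions, GC content and length of the longest transcript are from GENCODE M21 (GRCm38); the authors' build was not used for coordinates.

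The 9 members and the gene lists were chosen with earlier results of these data known. All 9 members are named; of the other pathway genes, the 3 largest rises and falls past the threshold in each adipocyte comparison, all kinases and both carrier subunits are named, plus the 5 nearest profiles among genes whose log2 CPM averaged 4 or more. Dld, Suclg2 and Sdhd, as well as Csl and Pdha2, were named after their values were seen. The marker Adgre1 is listed as Emr1. Alternatives were RLE and upper-quartile factors, removal of mitochondrial and red blood cell transcripts, other filters on low counts, DESeq2 1.42.0, limma-voom (limma 3.58.1), a fit of only the 2 groups compared, and leave-one-out fits over libraries. Corrections by lowess (span 0.3) for transcript length and GC content in each library were added after seeing the data; each property was known for at least 98.8% of genes tested.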

Additional observations from a re-analysis of the deposited data

Results flagged for a closer look

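Ogdh changed differently with the diet switch in the 2 fractions. The change from HFD to SW mice was smaller in adipocytes than in SVCs by a log2 difference of -1.40 (SE 0.28, adjusted p = 0.00412, edgeR interaction contrast over 15 libraries). It rests on 2 HFD libraries of SVCs, 212 and 411, which differed from each other in mitochondrial counts and macrophage markers. Without 212 the value was -1.08 and without 411 it was -1.71. Read layout differs by the labels between HFD and SW libraries of SVCs, and its part in this value was not tested.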

How the results depend on the processing

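No paired analysis was possible because the column numbers of the libraries occur in no label and are not shared between groups. Of 1008 alternative values for the 9 members, 53 turned sign, 27 lost and 29 gained the call. Values stand on the log2 scale or as counts of genes, and the cause of the changes was not tested. Members lower in HFD than in LFD adipocytes numbered 0 with no filter on low counts, 1 with the length correction and 1 with only the 2 groups fitted, against 2, and 0 to 3 when 1 library was left out. Between SW and HFD adipocytes, 1522 to 4290 genes passed when 1 library was left out (1522 without HFD library 403, 2302 without HFD library 401), against 4545.

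In SVCs, genes passing between SW and HFD mice numbered 5222 with DESeq2, 1719 with limma-voom and 0 with the GC correction (4825 at an unadjusted p under 0.05), against 2849. They numbered 503 without HFD library 212, 6213 without HFD library 411, 593 without SW library 414, and 0 without SW library 412 or 413 (4217 and 5434 at an unadjusted p under 0.05), a range of 0 to 6213. Members higher numbered 0 with the GC correction and 0 to 2 without 1 library. Members lower numbered 1 with no filter, 1 with at least 10 counts in every library, 1 with DESeq2, 1 with the length correction and 1 with 2 groups, and 0 to 1 without 1 library. The members' median was 0.076 with the length correction, against 0.37.

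Between fractions, 2528 to 7045 genes passed in HFD mice when 1 library was left out (2528 without SVC library 411, 3257 without adipocyte library 402), and the members' median ran from 0.52 to 0.83 in HFD and from 0.54 to 0.80 in SW mice. With the GC correction, 2 members were lower in adipocytes of SW mice (Ogdh and Suclg1, the latter at -0.92) and the members' median was 0.38. For the difference between fractions of the switch, 2245 genes passed with the GC correction and 2931 to 6622 without 1 library, against 4726. There the members' median was -0.47 with the GC correction, 1 member was higher with at least 10 counts in every library and 1 with the length correction, and 0 to 1 were higher and 1 to 3 lower without 1 library.

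Signs turned for values near 0. Between HFD and LFD adipocytes, no filter gave 0.0073 for Idh3a and 0.017 for Idh3b. Upper-quartile factors gave -0.086 for Ogdh, -0.048 for Suclg1 and -0.071 for Pdk3 and a split of 3294 genes higher and 4283 lower (3836 and 3612 with TMM). There limma-voom gave -0.0032 for Ogdh and -0.0071 for Pdk3, the length correction 0.11 for Idh3b and -0.10 for Ogdh, the GC correction -0.060 for Suclg1 and -0.049 for Pdk3, and the fit of 2 groups -0.0010 for Ogdh. Leaving out 1 library gave -0.22 to 0.14 for Idh3a, -0.12 to 0.12 for Idh3b, -0.047 to 0.094 for Ogdh, -0.081 to 0.20 for Suclg1 and -0.080 to 0.14 for Pdk3. Between SW and HFD adipocytes, the GC correction gave -0.12 for Pcx, 0.067 for Pdha1 and 0.016 for Idh3a, upper-quartile factors 0.013 for Pdha1, no filter -0.031 and the length correction -0.017 for Suclg1. Leaving out 1 library gave -0.23 to 0.37 for Pcx, -0.20 to 0.16 for Pdha1, -0.22 to 0.038 for Cs, -0.26 to 0.097 for Idh3a and -0.11 to 0.13 for Suclg1, and between SW and LFD adipocytes -0.20 to 0.014 for Idh3b and -0.046 to 0.20 for Suclg1. In SVCs, Idh3b was at -0.077 with at least 10 counts in every library and -0.25 with the length correction, and Fh1 at 0.13 with the GC correction, with ranges of -0.048 to 0.19 and -0.28 to 0.025 without 1 library. Between fractions in SW mice, Idh3b was at -0.072 with the GC correction and Suclg1 at 0.081 with the length correction (-0.090 to 0.11 without 1 library), and in HFD mice Ogdh ran from -0.048 to 0.68 without 1 library. For the difference between fractions, the GC correction gave -0.034 for Fh1 (-0.0070 to 0.37 without 1 library) and 0.12 for Mdh2.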
